A study of Mus musculus with 18 samples.

Results

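The transcripts described here are those of 8 genes of lipid aldehyde detoxification: Gsta4, Ptgr1, Akr1a1, Akr1b8, Aldh2, Aldh3a2, Aldh7a1 and Abcc1. They were taken by symbol, as named members of the pathway, from a table of 21859 genes, in which each had 1 row. Expression was measured by bulk RNA sequencing of retinal pigment epithelium (RPE), the pigmented layer behind the photoreceptors, in 18 mouse libraries. The Young group (7 libraries) and the Old group (4 libraries) came from untreated young and aged mice. The Old-Control group (3 libraries) came from aged mice given AAV2-tTA, an adeno-associated virus vector that carries a tetracycline-controlled transactivator. The Old-OSK group (4 libraries) came from aged mice given AAV2-tTA;TRE-OSK, in which the transactivator acts on the TRE promoter to express Oct4, Sox2 and Klf4 (OSK). Both vector groups therefore received tTA. Strain, exact ages, doses, intervals, the promoter that drives tTA and the number of mice per library are not given in the sources used here. No label says that the libraries of a group came from separate mice, so the p-values measure only the spread between these libraries, which may be technical.

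Peroxidation of membrane lipids releases reactive aldehydes such as hydroxynonenal, which attach to proteins and DNA. The RPE takes up photoreceptor outer segments rich in polyunsaturated fatty acids and is exposed to light and oxygen, so it meets such aldehydes throughout life. They can be conjugated to glutathione by glutathione S-transferases, of which Gsta4 encodes the one that prefers hydroxynonenal. They can be reduced, by aldo-keto reductases (Akr1a1, Akr1b8) or the alkenal reductase encoded by Ptgr1. They can also be oxidised to acids by aldehyde dehydrogenases (Aldh2 in mitochondria, Aldh3a2 in membranes, Aldh7a1 in several compartments). Glutathione conjugates leave the cell through transporters such as the one encoded by Abcc1.

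Total counts per library lay between 18104828 and 32348136. The defining markers of RPE were present: none of 14 RPE genes was at 0 in any group, and their summed level ran from 17089 to 71210 CPM, the library-scaled unit of counts used throughout. Markers of surface epithelium, the keratin-rich covering of cornea and conjunctiva, were present too. A list of 13 such genes (Krt12, Krt5, Krt15, Trp63 and others) was put together after the levels had been seen, and none was at 0 in any group. Its summed level ran from 209.7 CPM in Young replicate 7 to 28718 CPM in Old-OSK replicate 1. Old replicate 4 and Old-Control replicate 2 stood apart from their groups, each with the lowest summed RPE level and the highest surface epithelium level of its group. Young replicate 3 also had both, at 44497 CPM and 6199 CPM, although its RPE level was close to that of Young replicate 2 (45926 CPM). Old-OSK replicate 4 differed from its group the other way, with the lowest surface epithelium level there (3736 CPM). The names of 6 libraries carry a letter M that the labels do not explain: 3 Young, 2 Old-Control, 1 Old-OSK and no Old library. As a check of the vector, Pou5f1, the gene of Oct4, had a log2 fold change of 6.86 (SE 1.34, adjusted p = 0.024 by edgeR) in Old-OSK over Old-Control.

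Promoters of 4 of the 8 genes were in the RefSeq promoter table (assembly GRCm38.p6). Each runs from 250 bases before to 50 bases after the start site used there, which can differ from the end of the gene span given below. Shown are those of the reductase genes Ptgr1 and Akr1b8, whose levels had the widest ranges over the libraries, and that of Aldh3a2, for which every Old-OSK library lay below every Old-Control library. They are written on the strand of the gene, 5′ to 3′, and capitals mark motif matches. The Ptgr1 window is chr4:58987029-58987328 (minus strand), the Akr1b8 window chr6:34353896-34354195 (plus strand) and the Aldh3a2 window chr11:61267137-61267436 (minus strand). The Aldh3a2 window lies wholly inside the gene span given below, which on this strand begins at 61267464. Its matches therefore lie downstream of that position.
Ptgr1: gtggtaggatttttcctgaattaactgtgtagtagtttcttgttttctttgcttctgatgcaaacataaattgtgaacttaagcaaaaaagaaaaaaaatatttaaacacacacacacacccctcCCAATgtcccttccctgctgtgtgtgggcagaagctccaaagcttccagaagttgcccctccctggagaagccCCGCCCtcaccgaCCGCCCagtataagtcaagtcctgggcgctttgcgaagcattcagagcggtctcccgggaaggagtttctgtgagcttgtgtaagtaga
Akr1b8: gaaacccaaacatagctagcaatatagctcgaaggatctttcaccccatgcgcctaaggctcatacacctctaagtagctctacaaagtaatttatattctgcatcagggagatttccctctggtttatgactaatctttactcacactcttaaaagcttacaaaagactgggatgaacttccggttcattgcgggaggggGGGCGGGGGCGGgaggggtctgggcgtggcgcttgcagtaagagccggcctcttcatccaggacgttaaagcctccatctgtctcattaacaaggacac
Aldh3a2: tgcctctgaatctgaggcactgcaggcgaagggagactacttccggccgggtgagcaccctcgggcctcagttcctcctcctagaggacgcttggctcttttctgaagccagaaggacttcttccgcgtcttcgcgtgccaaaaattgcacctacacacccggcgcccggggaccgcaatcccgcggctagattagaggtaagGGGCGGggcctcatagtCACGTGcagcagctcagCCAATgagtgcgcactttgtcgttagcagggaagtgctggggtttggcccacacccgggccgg
The motifs searched, on both strands, were the core of the antioxidant response element (TGACNNNGC), an E-box (CACGTG), a GC box (GGGCGG) and a CCAAT box (CCAAT). None of these matches overlapped another. The GC box occurred at 2 places in the Ptgr1 window, both on the opposite strand, at 2 adjoining places in the Akr1b8 window and at 1 in the Aldh3a2 window, and 35.9% of all 32544 promoter windows held it. The CCAAT box lay in the Ptgr1 and Aldh3a2 windows and in 37.4% of all windows. The E-box lay only in the Aldh3a2 window among the 4 genes, and in 7.17% of all windows. The antioxidant response element core was in none of the 4 windows and in 12.4% of all windows, and the Akr1a1 window (chr4:116651625-116651924, minus strand) held no match to any of the motifs.

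All 8 genes passed the filter on low counts. Levels of different genes were compared per kilobase of exon. On this scale Gsta4 had the highest mean of the 8 genes in Young RPE, at 384 CPM per kb. Akr1a1 (242 CPM per kb) and Aldh2 (157 CPM per kb) came next. Aldh7a1 (29.9), Aldh3a2 (14.2), Abcc1 (13.9) and Ptgr1 (6.53 CPM per kb) had lower means, and Akr1b8 had the lowest at 0.611 CPM per kb. Gsta4 also ranked first in Old-OSK, at 1745 CPM per kb, where Ptgr1 stood at 54.4 CPM per kb, above Aldh7a1 (22), Aldh3a2 (10.4) and Abcc1 (7.95 CPM per kb).

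Gsta4 lies on chromosome 9 (GRCm38 chr9:78182774-78209349, plus strand) and encodes the transferase that conjugates hydroxynonenal to glutathione. In the 7 Young libraries it ranged from 403 to 679 CPM with a median of 449 CPM. The 4 Old libraries had 448, 1133, 904 and 2287 CPM. The first of these lay within the Young range and the other 3 above it. The 3 Old-Control libraries had 529, 890 and 674 CPM, of which only replicate 2 lay above every Young library. The 4 Old-OSK libraries had 3501, 2473, 2117 and 746 CPM. Replicates 1 to 3 lay above all Old-Control libraries, and replicate 4 lay within their range. Replicate 4 is the Old-OSK library with M in its name. It also had a summed surface epithelium level of 3736 CPM, against 18579 to 28718 CPM in replicates 1 to 3, and the highest summed rod level of its group (16621 CPM). Group means ran in the order Young (486 ± 92.4 CPM, SD, n = 7), Old-Control (698 ± 182, n = 3), Old (1193 ± 783, n = 4) and Old-OSK (2209 ± 1139, n = 4). The libraries of neighbouring groups in this order overlapped at every step.

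**Figure D1:**
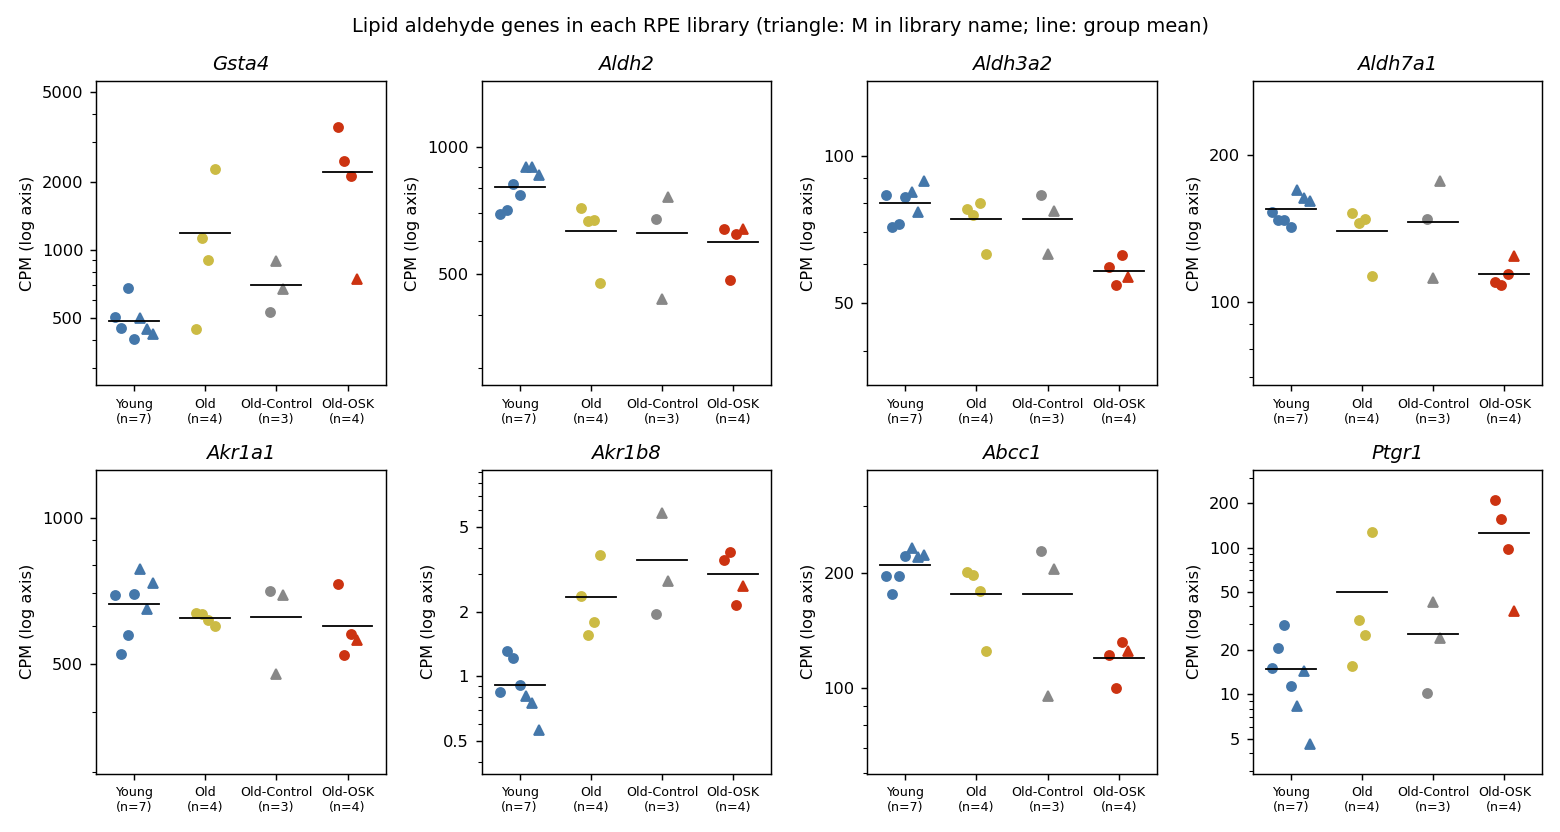
Level of each of the 8 genes in each library, in CPM on a log axis, by group. Each point is 1 library, triangles are the libraries with M in their name and the horizontal line is the group mean. Gsta4 runs from 403 to 3501 CPM and Ptgr1 from 4.61 to 212 CPM, with Old replicate 4 and Old-OSK replicates 1 to 3 at the top of both.

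Ptgr1 (GRCm38 chr4:58965439-58987119, minus strand) encodes prostaglandin reductase 1, which reduces the double bond of hydroxynonenal and related alkenals. It had the widest range of the 8 genes, 45.9-fold from the lowest to the highest library. Young libraries ranged from 4.61 to 29.9 CPM with a median of 14.5 CPM. Old libraries had 15.7, 32.1, 25.5 and 127 CPM, so that only replicates 2 and 4 lay above every Young library. Old-Control libraries had 10.3, 42.3 and 24.3 CPM. Old-OSK libraries had 212, 156, 97.1 and 37 CPM, and the first 3 lay above all Old-Control libraries while the fourth lay among them.

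The aldo-keto reductase genes Akr1a1 and Akr1b8 differed from each other in level and in pattern. Akr1a1 (GRCm38 chr4:116636510-116651680, minus strand) encodes aldehyde reductase. Its group means lay between 599 ± 92.5 CPM (Old-OSK, SD, n = 4) and 666 ± 90.9 CPM (Young, n = 7), and every group overlapped every other. Akr1b8 (GRCm38 chr6:34354119-34368463, plus strand) encodes a reductase of the aldose reductase family and was near the floor of detection, with 10 to 171 counts per library. Young libraries ranged from 0.562 to 1.32 CPM with a median of 0.842 CPM. Old libraries had 2.39, 1.57, 1.8 and 3.68 CPM, Old-Control libraries 1.95, 5.78 and 2.78 CPM, and Old-OSK libraries 3.49, 3.82, 2.16 and 2.64 CPM. No Young library overlapped any aged library, and the 3 aged groups overlapped one another. The share of all tested genes without overlap between groups was not counted, here or for the other genes described. Such a separation can therefore not be called unusual. Akr1b8 has close relatives in the genome (Akr1b3, Akr1b7 and Akr1b10) with which it could exchange reads.

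The aldehyde dehydrogenase genes had their highest means in Young and their lowest in Old-OSK. Aldh2 (GRCm38 chr5:121566027-121593824, minus strand), which encodes the mitochondrial enzyme, ranged from 693 to 896 CPM in Young with a median of 818 CPM. It stood at 717, 669, 671 and 478 CPM in Old, at 676, 438 and 762 CPM in Old-Control and at 641, 484, 623 and 639 CPM in Old-OSK. Old replicate 4 and Old-Control replicate 2 were the lowest of their groups. Aldh3a2 (GRCm38 chr11:61223417-61267464, minus strand), which encodes the membrane-bound fatty aldehyde dehydrogenase, ranged from 71.5 to 89 CPM in Young with a median of 82.6 CPM. It stood at 78, 75.9, 80 and 62.9 CPM in Old and at 83.2, 62.9 and 77.3 CPM in Old-Control. The 4 Old-OSK libraries, at 59.4, 54.4, 62.7 and 56.6 CPM, lay below every library of the other groups. Aldh7a1, on chromosome 18, encodes an enzyme that also acts in lysine breakdown. It ranged from 142 to 169 CPM in Young (median 153 CPM) and from 108 to 124 CPM in Old-OSK. Old (113 to 152 CPM) and Old-Control (112 to 177 CPM) overlapped both. Aldh2 and Aldh7a1 overlap other genes on the opposite strand, Gm42879 and Phax with a pseudogene respectively, and in these counts the reads of the overlaps cannot be told apart.

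Abcc1 (GRCm38 chr16:14361558-14475737, plus strand) encodes a transporter that exports glutathione conjugates. Young libraries ranged from 176 to 233 CPM with a median of 220 CPM. Old libraries had 202, 198, 180 and 125 CPM, Old-Control libraries 228, 95.7 and 205 CPM, and Old-OSK libraries 122, 100, 132 and 125 CPM. Old replicate 4 and Old-Control replicate 2 thus lay within or below the range of Old-OSK, and the remaining libraries of both groups lay within the Young range.

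In aged untreated RPE, Gsta4 and Akr1b8 were higher than in young RPE, and the other 6 genes did not pass the test. Gsta4 had a log2 fold change of 1.29 in Old over Young (SE 0.36, adjusted p = 0.0375 by edgeR), a fold of 2.45, and was above every Young library in 3 of 4 Old libraries. Akr1b8 had a log2 fold change of 1.35 (SE 0.32, adjusted p = 0.0181 by edgeR) and was above every Young library in 4 of 4. A gene was called when its adjusted p over the 15944 genes tested was under 0.05. By this rule 2 of 8 genes were called, both higher, and 9.56% of all tested genes were called (5.4% higher, 4.16% lower). Ptgr1 had the largest log2 fold change of the 8, 1.74 (SE 0.58), with an edgeR adjusted p of 0.0627. The values for the dehydrogenases were -0.35 for Aldh2 (SE 0.15, adjusted p = 0.137 by edgeR), -0.11 for Aldh3a2 and -0.15 for Aldh7a1. Akr1a1 stood at -0.1 and Abcc1 at -0.25. The median log2 fold change of the 8 was -0.1, with 3 of 8 positive, against a median of 0 and 49.3% positive over all tested genes. Neither gene was called without Old replicate 4, the library with the highest surface epithelium level of the group. There the log2 fold change of Gsta4 was 0.77 (adjusted p = 0.257) and that of Akr1b8 was 1.05 (adjusted p = 0.114), both by edgeR. That fit called 0 of the 8 genes and 2.47% of all genes, with DESeq2 not run on those libraries. Without Old replicate 4 and Old-Control replicate 2 together, a fit added after seeing the data, Akr1b8 was called (1.07, adjusted p = 0.0445 by edgeR) and Gsta4 was not (0.78, adjusted p = 0.199 by edgeR). That fit called 622 of 16006 tested genes. The call of Gsta4 held in 2 of 11 fits that each left out 1 library, without Young replicate 3 and without Old replicate 1. That of Akr1b8 held in 10 of the 11, all except the fit without Old replicate 4.

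**Figure D2:**
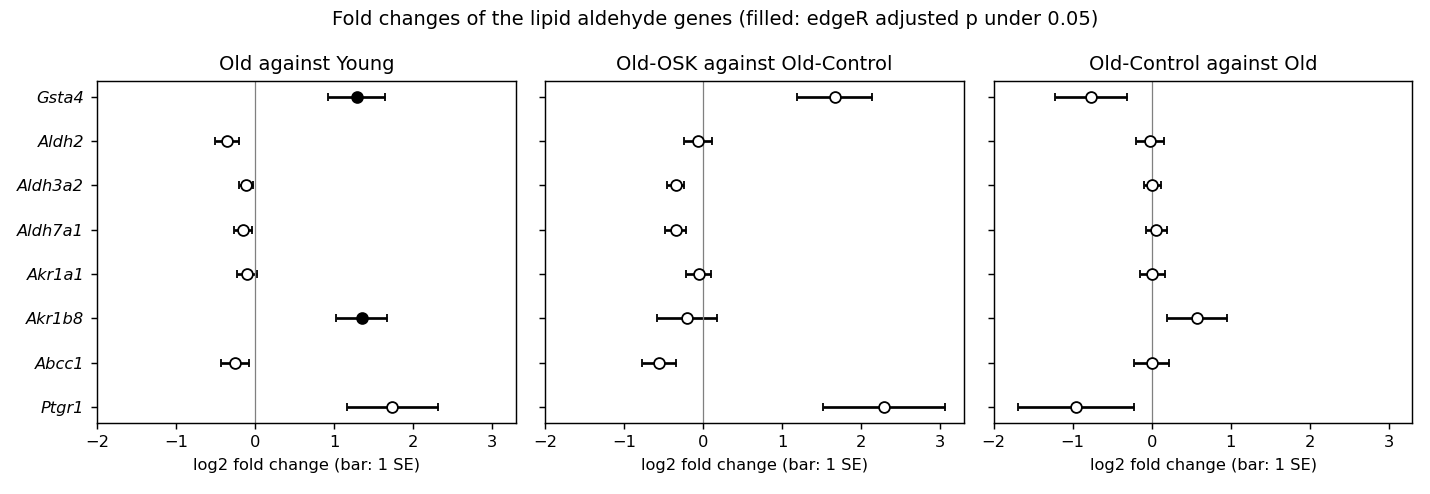
Log2 fold change of each of the 8 genes in the 3 comparisons, with bars of 1 SE. Filled points have an edgeR adjusted p under 0.05. Gsta4 (1.29) and Akr1b8 (1.35) are filled in Old against Young and no point is filled in the other comparisons.

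The comparison of Old-OSK with Old-Control asks which transcripts differed with the OSK genes when both groups received tTA. None of the 8 genes was called by edgeR at an adjusted p under 0.05, where 0.728% of all tested genes were called (0.408% higher, 0.32% lower). At an unadjusted p under 0.05, 5 of 8 passed, against 26.3% of all tested genes, and DESeq2 called 2 (Gsta4 and Ptgr1) beside 10.1% of all genes. Gsta4 had a log2 fold change of 1.66 (SE 0.48, adjusted p = 0.0788 by edgeR), with 3 of 4 Old-OSK libraries above all Old-Control libraries. Ptgr1 had one of 2.29 (SE 0.77, adjusted p = 0.0976 by edgeR), also with 3 of 4 above. Aldh3a2 had one of -0.35 (SE 0.11, adjusted p = 0.085 by edgeR), with 4 of 4 Old-OSK libraries below all Old-Control libraries. The groups nearly touched, at 62.7 CPM in Old-OSK replicate 3 and 62.9 CPM in Old-Control replicate 2. Aldh7a1 stood at -0.35 (SE 0.13) and Abcc1 at -0.56 (SE 0.22), with edgeR adjusted p of 0.116 and 0.134. The values for Aldh2 (-0.07), Akr1a1 (-0.06) and Akr1b8 (-0.21) were smaller than their SE. The median of the 8 was -0.14 with 2 of 8 positive, against a median of -0.03 over all tested genes.

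Single libraries changed these outcomes, for these genes and for all genes. Without Old-Control replicate 2 edgeR called 17.9% of all tested genes and 5 of the 8: Gsta4 (1.84, adjusted p = 0.0349) and Ptgr1 (2.82, adjusted p = 0.0456) higher, and Aldh3a2 (-0.49, adjusted p = 0.0111), Aldh7a1 (-0.54, adjusted p = 0.011) and Abcc1 (-0.88, adjusted p = 0.00599) lower. Without Old-OSK replicate 4 it called 11% of all genes, among them Gsta4 (1.92, adjusted p = 0.0202) and Ptgr1 (2.56, adjusted p = 0.043). With the replicate number as a block the log2 fold change of Gsta4 was 1.95 (adjusted p = 0.0552) and that of Ptgr1 was 2.69 (adjusted p = 0.0589), in a fit that called 3.02% of all genes. In the same libraries without the block both were called (adjusted p = 0.0295 and 0.0446), beside 990 of 15256 tested genes. In the 12 libraries without M edgeR called 8.2% of all genes and, of the 8, Abcc1 alone (-0.95, adjusted p = 0.0401), with 1 Old-Control library assumed to vary like the others.

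The control vector itself went with no called difference from untreated Old RPE. None of the 8 genes was called by edgeR or by DESeq2, and none had an unadjusted p under 0.05. Over all tested genes 0% were called and 596 had an unadjusted p under 0.05. Log2 fold changes in Old-Control over Old were -0.77 for Gsta4 (SE 0.46), -0.96 for Ptgr1 (SE 0.73) and 0.57 for Akr1b8 (SE 0.38), all with adjusted p = 0.9 by edgeR. The other 5 genes lay between -0.02 and 0.06. This comparison shares the Old libraries with Old against Young and the Old-Control libraries with Old-OSK against Old-Control.

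Levels of Gsta4 and Ptgr1 went with surface epithelium transcripts across the libraries. The 4 libraries highest in Gsta4, which were Old replicate 4 and Old-OSK replicates 1 to 3, were also the 4 highest in Ptgr1, in the summed surface epithelium list and in Krt12, the keratin of corneal epithelium. Krt12 stood at 1991 CPM in Old replicate 4 and at 3096, 1533 and 946 CPM in Old-OSK replicates 1 to 3, against 0.984 to 85.3 CPM in the other 14 libraries. The summed list had a median of 1258 CPM in Young (210 to 6199 CPM), 7632 CPM in Old (1017 to 20720 CPM), 3193 CPM in Old-Control (1345 to 5268 CPM) and 19141 CPM in Old-OSK (3736 to 28718 CPM). In each group the library highest in Gsta4 was also highest in this list. Young replicate 7, the lowest in the list, nevertheless had 424 CPM of Gsta4, whereas it had the lowest Ptgr1 of all libraries. In a bulk sample, fewer cells of a type and less RNA per cell cannot be told apart.

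With the mean log2 level of the surface epithelium list as a covariate, a fit added after seeing the data, the differences in Gsta4 and Ptgr1 were smaller. In Old over Young the log2 fold change of Gsta4 was 0.22 (SE 0.26, adjusted p = 0.72 by edgeR) and that of Ptgr1 was 0.01 (SE 0.22, adjusted p = 0.984 by edgeR). That of Akr1b8 was 0.93 (SE 0.31, adjusted p = 0.137 by edgeR). In Old-OSK over Old-Control the values were 0.59 for Gsta4 (SE 0.3, adjusted p = 0.719 by edgeR) and 0.53 for Ptgr1 (SE 0.26, adjusted p = 0.715 by edgeR). The fit called 374 of 15944 tested genes in Old over Young and 35 in Old-OSK over Old-Control. The mean log2 level of the list was 6.37 to 9.92 in Old-OSK and 5.36 to 6.76 in Old-Control. Only Old-OSK replicate 4 lay within the Old-Control range, so there the fit can hardly tell the list from the group. What lay behind the smaller values was not tested. Immune markers also differed with age. Their summed level was 504.3 to 692 CPM in Young and 774.9 to 1296 CPM in Old, 10 of 12 were called higher and none was at 0. With the immune list as a covariate Akr1b8 had a log2 fold change of 0.06 (SE 1.12, adjusted p = 0.996 by edgeR) in Old over Young, while Gsta4 had one of 2.3 (SE 1.29, adjusted p = 0.728 by edgeR). The mean log2 level of the immune list was 2.76 to 3.32 in Young and 4.4 to 5.35 in Old, without overlap. That fit called 0 of all tested genes and cannot tell immune level from age.

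**Figure D3:**
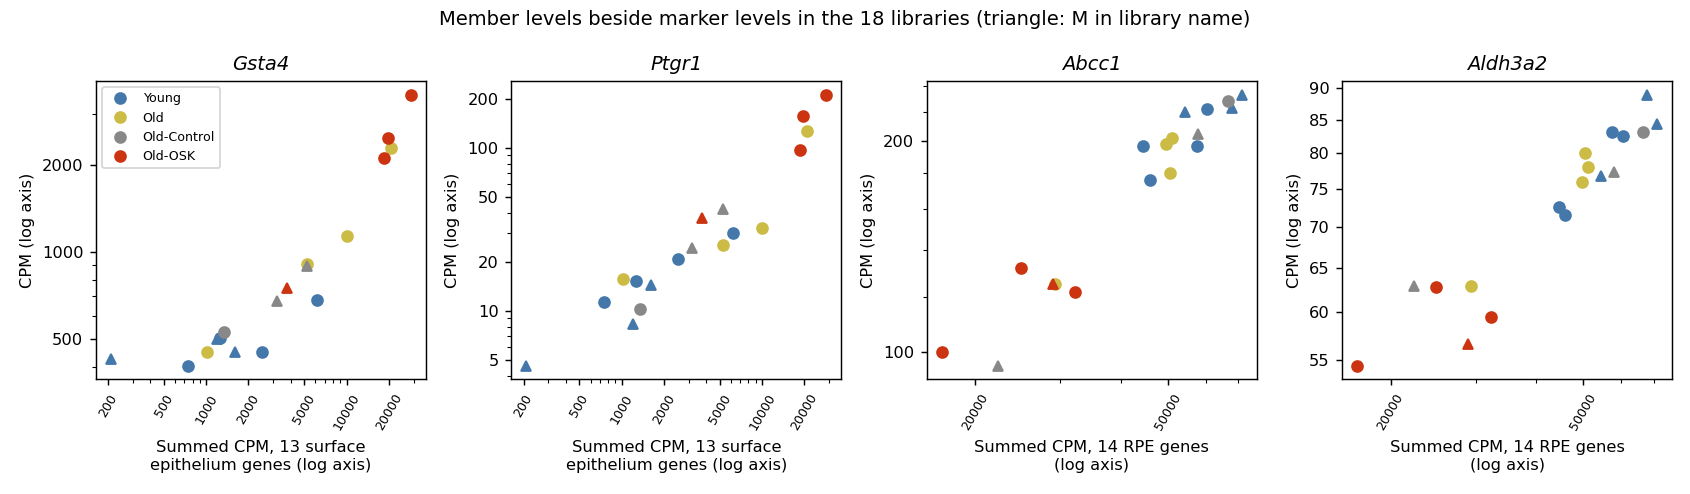
Levels of Gsta4 and Ptgr1 against the summed level of 13 surface epithelium genes, and of Abcc1 and Aldh3a2 against the summed level of 14 RPE genes, in CPM on log axes. Each point is 1 of the 18 libraries, and triangles have M in their name. Old replicate 4 (2287 CPM of Gsta4) lies among Old-OSK replicates 1 to 3 in the panels of Gsta4 and Ptgr1, and Old-Control replicate 2 (95.7 CPM of Abcc1) lies near Old-OSK in those of Abcc1 and Aldh3a2.

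The dehydrogenase genes and Abcc1 were compared with RPE markers. The summed level of the 14 RPE genes had a median of 57431 CPM in Young (44497 to 71210 CPM), 50079 CPM in Old (29317 to 51096 CPM), 57907 CPM in Old-Control (22336 to 66579 CPM) and 26897 CPM in Old-OSK (17089 to 32200 CPM). In Old and in Old-Control the library lowest in this sum, Old replicate 4 and Old-Control replicate 2, was also lowest in Aldh2, Aldh3a2, Aldh7a1, Akr1a1 and Abcc1. In Old-OSK replicate 2 was lowest in the sum and in the same 5 genes. In Young, replicate 3 was lowest in the sum and in none of the 5. With the mean log2 level of the RPE list as a covariate, also added after seeing the data, the log2 fold change in Old-OSK over Old-Control was 0.08 for Abcc1 (SE 0.12, adjusted p = 0.788 by edgeR). It was -0.12 for Aldh3a2 (SE 0.08, adjusted p = 0.518 by edgeR) and -0.07 for Aldh7a1 (SE 0.1, adjusted p = 0.767 by edgeR). This covariate also lowered the values of Gsta4, to 0.78 in Old over Young and 1.16 in Old-OSK over Old-Control, and those of Ptgr1, to 0.53 and 1.23, none of them called. That fit called 630 of 15944 tested genes in Old over Young and 17 in Old-OSK over Old-Control. The mean log2 level of the RPE list was 9.35 to 9.88 in Old and 9.94 to 10.4 in Young, without overlap. It was 8.95 to 9.98 in Old-Control and 8.68 to 9.27 in Old-OSK. The fit can therefore hardly tell RPE level from age or vector group. Rod markers differed between these libraries as well. Their summed level was 161.1 to 3150 CPM in Young, 2169 to 7798 CPM in Old, 1650 to 19803 CPM in Old-Control and 2948 to 16621 CPM in Old-OSK, and none of 10 was at 0.

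Across the 18 libraries Gsta4 went with Ptgr1 and ran against the dehydrogenases and Abcc1. Pearson's r of log2 CPM with Gsta4 was 0.941 for Ptgr1 (permutation p = 1e-05, the smallest the resamples can give; 7e-05 after Benjamini-Hochberg adjustment over the 7 relations). Spearman's rho was 0.897 (permutation p = 2e-05, adjusted 0.00014). Without Old-OSK replicates 1 and 2, the libraries farthest from the median of Gsta4, r was 0.898. Taken as deviations from group means it was 0.848, and within the 7 Young libraries it was 0.618. Within Young r was 0.0358 for Aldh2, -0.0868 for Aldh7a1, -0.453 for Aldh3a2, -0.279 for Abcc1, -0.308 for Akr1a1 and 0.473 for Akr1b8. Aldh7a1 had an r of -0.807 (permutation p = 0.00011, adjusted 0.000385), a rho of -0.697 (permutation p = 0.0018, adjusted 0.0021), -0.716 without those libraries and -0.568 as deviations. Aldh3a2 (r -0.766, rho -0.713), Abcc1 (r -0.755, rho -0.732) and Aldh2 (r -0.662, rho -0.789) were negative too. Their permutation p for r were 0.00032, 0.00075 and 0.00334 (adjusted 0.000747, 0.00131 and 0.0039), and those for rho were 0.00107, 0.00089 and 0.00016 (adjusted 0.00187, 0.00187 and 0.00056). Without the same 2 libraries r was -0.65, -0.663 and -0.672. As deviations from group means these 3 relations did not pass, with r between -0.485 and -0.424. Akr1b8 had an r of 0.672 (permutation p = 0.00228, adjusted 0.00319), a rho of 0.705 (permutation p = 0.00162, adjusted 0.0021) and 0.597 without those libraries. As deviations its r was 0.443, which did not pass either. Akr1a1 had an r of -0.265 (permutation p = 0.284, adjusted 0.284), a rho of -0.414 (permutation p = 0.0891, adjusted 0.0891) and -0.409 without those libraries. These relations share the surface epithelium and RPE levels given above. The permutations for r and rho moved libraries freely between groups. Their p-values therefore do not separate shifts between groups from relations within them. The ranks of these genes by r among all tested genes are given below.

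The 5 genes whose log2 CPM was most like that of Gsta4 over the 18 libraries were S100a16 (r 0.993), Arpc3 (0.988), Upk3bl (0.987), Rack1 (0.986) and Rplp0 (0.986). S100a16 encodes a calcium-binding protein, Arpc3 a subunit of the actin-nucleating Arp complex, Upk3bl a uroplakin-like protein, Rack1 a ribosome-bound scaffold and Rplp0 a ribosomal protein. Upk3bl had means of 103 CPM in Young, 301 in Old, 141 in Old-Control and 642 CPM in Old-OSK. The means of all 5 genes ran in the same order as those of Gsta4, which their selection by r favours. Ptgr1 ranked 265 of 15943 genes by this measure, from the highest r to the lowest, and Akr1b8 ranked 2641. Akr1a1 ranked 10595, Aldh2 13650, Abcc1 14684, Aldh3a2 14816 and Aldh7a1 15282. Many other genes thus had a higher r than Akr1b8, or a lower one than Aldh2 and Abcc1.

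Other genes of aldehyde and lipid peroxide handling were counted in 4 lists, of which 71 of 74 genes were tested. In Old against Young 7 rose and 3 fell, where 9.56% of all tested genes were called. At an unadjusted p under 0.05, 26 (36.6%) passed, against 29% of all tested genes. The median log2 fold change of the 71 was 0.04. Of 22 other carbonyl and alkenal reductases 5 rose and none fell. Cbr3, a carbonyl reductase, stood at 12.1 ± 0.174 CPM in Old (SD, n = 4) and 8.86 ± 1.17 CPM in Young (n = 7), a log2 fold change of 0.45 (adjusted p = 0.0209 by edgeR), and the groups did not overlap. The others were Cbr2 (2.66), the retinol-oxidising alcohol dehydrogenase Adh7 (2.68), Akr1c13 (1.71) and Adh1 (2.31), the last of which was named because it completes the 5. Old overlapped Young for Cbr2, Adh7 and Adh1 but not for Akr1c13. Adh7 ran from 17.4 to 373 CPM in Old and from 3.77 to 76.2 CPM in Young. With the surface epithelium covariate the values were 0.97 for Cbr2, 0.68 for Adh7, 0.44 for Akr1c13 and 0.4 for Adh1, none of them called, and 0.43 for Cbr3 (adjusted p = 0.0964 by edgeR). That fit called 374 of 15944 tested genes.

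Of 17 other aldehyde dehydrogenases 1 rose and 1 fell with age. Aldh3a1, an abundant enzyme of corneal epithelium, ran from 67.3 to 2598 CPM in Old and from 12.9 to 398 CPM in Young (log2 fold change 2.82, SE 0.84, adjusted p = 0.0453 by edgeR), and with the surface epithelium covariate its value was -0.01. Aldh1l1, which acts on folate rather than on lipid aldehydes, fell: its mean was 93.9 ± 11.9 CPM for Young (SD, n = 7) and 66.4 ± 14.3 CPM for Old (n = 4), with a log2 fold change of -0.5 (adjusted p = 0.0375 by edgeR). Of 16 genes of conjugate export and mercapturate formation 1 rose and 1 fell. Ggt1, the enzyme that starts the breakdown of glutathione conjugates outside the cell, ran from 26.3 to 56.9 CPM in Old and from 118 to 160 CPM in Young. Its log2 fold change was -1.67 (SE 0.21, adjusted p = 0.00027 by edgeR), it was called in all 11 fits that left out 1 library, and with the surface epithelium covariate it was -1.47 (adjusted p = 0.00207 by edgeR). With the immune list as a covariate it was -0.63 and was not called (adjusted p = 0.838 by edgeR). That fit called 0 of all tested genes. The mean log2 level of the immune list did not overlap between Old and Young, so the fit cannot tell immune level from age. Abcc3, another conjugate exporter, was at 2.81 ± 0.823 CPM in Old (SD, n = 4) and 1.46 ± 0.427 CPM in Young (n = 7), a log2 fold change of 0.94 (adjusted p = 0.0355 by edgeR). Of 16 genes of lipid peroxidation control only Pnpla8, a phospholipase, was called, lower in Old (log2 fold change -0.43, adjusted p = 0.039 by edgeR). Without Old replicate 4 none of the 71 genes was called higher and 1 was called lower, where 2.47% of all tested genes were called.

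**Figure D4:**
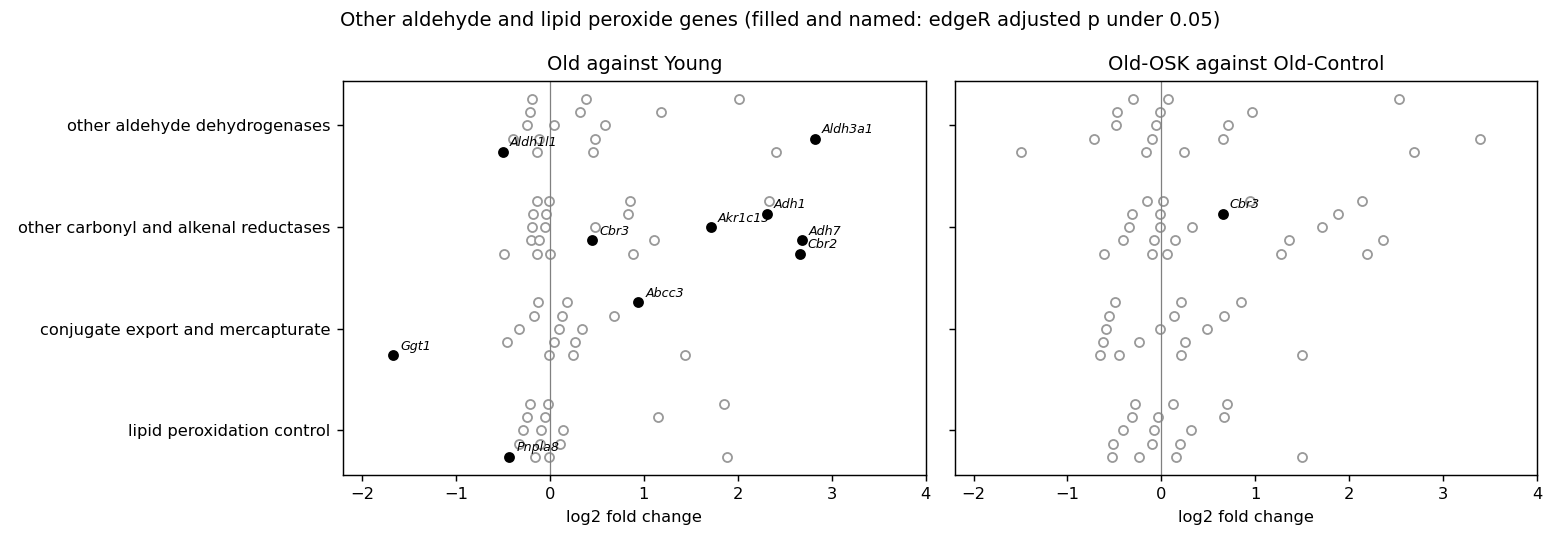
Log2 fold changes of 71 other genes of aldehyde and lipid peroxide handling, by list, in Old against Young and in Old-OSK against Old-Control. Each point is 1 gene, vertical offsets within a list only separate the points, and filled, named points have an edgeR adjusted p under 0.05. Ggt1 lies lowest of the called genes in Old against Young at -1.67, and Cbr3 (0.65) is the 1 called gene in Old-OSK against Old-Control.

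In Old-OSK against Old-Control 1 of the 71 genes rose and none fell, where 0.728% of all tested genes were called. At an unadjusted p under 0.05, 32 (45.1%) passed, against 26.3% of all tested genes. DESeq2 called 8 higher and 3 lower, beside 10.1% of all tested genes. Cbr3 ran from 16.3 to 20.8 CPM in Old-OSK and from 11 to 11.9 CPM in Old-Control, a log2 fold change of 0.65 (SE 0.13, adjusted p = 0.0333 by edgeR). It was called in 2 of 7 fits that left out 1 library, without Old-Control replicate 2 and without Old-OSK replicate 4. In the first 3 of the 71 genes were higher and 13 lower, beside 17.9% of all tested genes called. In the second 6 were higher and 4 lower, beside 11% of all tested genes called. With the replicate block the adjusted p of Cbr3 was 0.0851 by edgeR, and 4 of the 71 genes were called higher, beside 3.02% of all tested genes called. With the surface epithelium covariate the log2 fold change of Cbr3 was 0.63 (adjusted p = 0.205 by edgeR), in a fit that called 35 of 15944 tested genes. The next lowest p in each of the other lists belonged to Lap3, a peptidase (0.85, adjusted p = 0.0517 by edgeR), the succinic semialdehyde dehydrogenase gene Aldh5a1 (-0.72, adjusted p = 0.0702 by edgeR) and the transferrin receptor gene Tfrc (-0.52, adjusted p = 0.0838 by edgeR). The mean of Aldh3a1 was 2418 ± 1739 CPM for Old-OSK (SD, n = 4), against 231 ± 129 CPM for Old-Control (n = 3). Its log2 fold change was 3.39 (adjusted p = 0.105 by edgeR). In Old-Control against Old none of the 71 was called by edgeR or DESeq2 (2 at an unadjusted p under 0.05), and the lowest p was that of Aldh1a2, a retinaldehyde dehydrogenase gene (-1.4, adjusted p = 0.9 by edgeR).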

How the data were processed

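The authors deposited raw counts per gene for 18 libraries. Per the labels' protocols, TRIzol-extracted polyA RNA was copied into full-length cDNA (SMART-Seq v4) and tagged with Nextera XT. Per the submitters' processing notes, STAR 2.7.1a and featureCounts 1.6.2 were used, with GRCm38 (mm10) and GRCh38 (hg38) among the builds. The annotation and strand setting are not given in the sources used here. No molecular identifiers were counted, so PCR copies add to the counting error.

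The members and gene lists were chosen with earlier results of these data known. Columns were matched to samples by title. With edgeR 4.0.16, filterByExpr (at least 10 counts, 15 in total) kept 15944 genes, TMM set the scaling and 1 model of 4 group means was fitted to all libraries (glmQLFit and glmQLFTest, R 4.3.3), with Benjamini-Hochberg adjustment over all tested genes and a threshold of 0.05. CPM are counts over the TMM-scaled library size of the tested genes, given as mean ± SD, and log2 CPM used a prior count of 2. Marker scores are mean log2 CPM of a list. Correlations used 100000 permutation resamples, two-sided. The fit was tested on simulated data.

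The naming rule took all 8 members, up to 4 genes with the lowest p per other list, and the 5 genes with the highest r to Gsta4. Akr1b1 and Ptgr3 were not among the symbols, and Adh4 was not tested. Genes and exon lengths are from GENCODE M21 (GRCm38). Alternatives used DESeq2 1.42.0, other scaling, filters, covariates and left-out libraries. No pair of replicates agreed within sampling noise (lowest chi-square per gene 19.1). Deviations of Old-OSK and Old-Control libraries of the same number were positively related across genes (r = 0.103, 0.421 and 0.339). Libraries of different number were not compared in this way, so these values do not establish that the numbers are pairs. The main fit was unpaired, and the replicate block is given as an alternative.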

Additional observations from a re-analysis of the deposited data

Results flagged for a closer look

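In groups of 4 to 10 libraries, a value was singled out when its gap to the nearest other library exceeded Dixon's 95% critical share of the group's range. Of 24 groups checked 3 met this, and chance alone gives about 1 in 20. Gsta4 was highest in Young replicate 3, at 679 CPM, with the next library at 502 CPM. Ptgr1 was highest in Old replicate 4, at 127 CPM, with the next at 32.1 CPM. Aldh2 was lowest in Old-OSK replicate 2, at 484 CPM, with the next at 623 CPM. Young replicate 3 had the highest summed surface epithelium level of its group (6199 CPM), as had Old replicate 4 (20720 CPM), and Old-OSK replicate 2 had the lowest summed RPE level of all libraries (17089 CPM).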

How the results depend on the processing

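The cause of the changes below was not tested. In Old against Young 2 of the 8 genes were called, and the other scaling, both filters and a fit of the 2 groups alone each also called 2, and DESeq2 called 3. The count was 1 with M as a covariate and 1 without Old replicate 4 and Old-Control replicate 2. It was 0 in the libraries without M, with the rod, immune, surface epithelium or RPE score as a covariate, with the replicate block and in the same libraries without the block. Leaving out 1 library gave 0 to 3. In Old-OSK against Old-Control none was called by edgeR, DESeq2 called 2, the libraries without M gave 1, leaving out Old replicate 4 and Old-Control replicate 2 gave 5, the replicate block gave 0 and the same libraries without the block gave 2. Leaving out 1 library gave 0 to 5. In Old-Control against Old the count was 0 under every alternative run. The fits with the surface epithelium or RPE score and the one without both libraries were chosen after seeing the data.

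Some log2 fold changes changed sign, among them values far from 0 (Aldh3a1 from 2.82, Abcc3 from 0.94, Akr1b8 from 0.57 and Ptgr1 from -0.96). In Old against Young, the immune covariate gave 0.2 for Aldh3a2, 0.78 for Akr1a1, 0.41 for Abcc1 and -0.02 for Abcc3. The RPE covariate gave 0.07 for Aldh3a2, 0.05 for Aldh7a1, 0.16 for Akr1a1 and 0.17 for Abcc1. The surface epithelium covariate gave 0.02 for Aldh3a2 and -0.01 for Aldh3a1, and the replicate block gave 0.01 for Akr1a1. In Old-OSK against Old-Control, the RPE covariate gave 0.34 for Aldh2, 0.26 for Akr1a1 and 0.08 for Abcc1, the surface epithelium covariate 0.12 for Aldh2 and 0.05 for Akr1a1, and the immune covariate 0.06 for Akr1a1. Akr1b8 was 0.69 in the libraries without M and 0.32 without Old replicate 4 and Old-Control replicate 2. Leaving out 1 library gave -0.29 to 0.1 for Aldh2, -0.25 to 0.03 for Akr1a1 and -0.5 to 0.32 for Akr1b8.

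In Old-Control against Old, Aldh2 was 0.1 without M, 0.04 with the RPE covariate and 0.06 without both libraries. Aldh3a2 was -0.01 with median-ratio factors and with DESeq2, -0.02 without a filter, -0.04 with surface epithelium, -0.09 with the replicate block and -0.08 without it. Aldh7a1 was -0.02 with M, -0.06 with the block and -0.04 without it. Akr1a1 was -0.01 with median-ratio factors, no filter, DESeq2 and M, -0.03 with surface epithelium, -0.04 with the block and -0.02 without it. Akr1b8 was -0.28 without M and Ptgr1 was 0.07 in the numbered libraries without the block. Leaving out 1 library gave -0.18 to 0.18 for Aldh2, -0.08 to 0.12 for Aldh3a2, -0.1 to 0.22 for Aldh7a1, -0.09 to 0.17 for Akr1a1 and -1.51 to 0.07 for Ptgr1. As deviations from group means the relations to Gsta4 weakened to -0.474 for Aldh2, -0.424 for Aldh3a2, 0.443 for Akr1b8 and -0.485 for Abcc1.

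Over all tested genes 1524 were called in Old against Young, against 2452 by DESeq2, 600 with M, 445 without M libraries, 477, 0, 374 and 630 with the rod, immune, surface epithelium and RPE covariates, 0 with the replicate block (191 without it), and 393 to 2140 without 1 library. In Old-OSK against Old-Control 116 were called, against 1603 by DESeq2, 2 in the 2 groups alone, 58 with M, 1347 without M libraries, 54, 35 and 17 with the immune, surface epithelium and RPE covariates, 461 with the replicate block (990 without it), and 13 to 2881 without 1 library. Leaving out Old replicate 4 and Old-Control replicate 2 gave 622 and 3729. In the libraries with shared numbers, Gsta4 and Ptgr1 were called without the block (adjusted p = 0.0295 and 0.0446) and not with it (0.0552 and 0.0589), and Cbr3 was called in neither (0.0527 and 0.0851), all by edgeR. Median-ratio factors moved the split there from 65 higher and 51 lower to 64 and 29. Deviations of libraries of the same number were related weakly or in the negative direction in Old against Young (r = -0.0497, -0.0191, 0.144 and -0.193). In Old-Control against Old the values differed in sign (0.197, -0.189 and 0.359). The block there uses a number only. With 10 to 171 counts per library, Akr1b8 has the fewest counts of the 8 genes.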
